A study of Mus musculus with 4 samples.

Results

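The genes examined here encode the digestive enzymes of the exocrine pancreas and the proteins that package, secrete or switch them on. A list of 36 genes was chosen by name: 5 trypsinogens, 6 chymotrypsinogens and elastases, 2 carboxypeptidases, 6 lipases and cofactors, 3 genes of amylase, ribonuclease and kallikrein, 6 Reg, Zg and granule proteins, 3 acinar transcription factors and 5 other acinar genes. Of these, 32 were matched to a probe through its transcript accession, and 27 had a probe bright enough to test among 21320 genes and unnamed transcripts. Their levels were measured in lymph nodes that drain the pancreas, which are built of immune and stromal cells rather than of acinar cells. The mice were females of the inbred NOD strain, which develops autoimmune diabetes spontaneously, at 12 weeks of age, with no treatment named in the labels. The left pancreatic node, called gastric (GLN), and the right one, called pancreatico-duodenal (PDLN), of each of 4 mice were compared on a 2-colour array, GLN RNA in red (Cy5) and PDLN RNA in green (Cy3). Every log2 ratio is GLN over PDLN and is negative where the GLN has less of a transcript. Each node was homogenized whole, so the cells that a transcript came from, their number and their RNA content cannot be told apart. The dyes were never exchanged, so dye and node cannot be told apart in a ratio either, whereas levels of the same node in different mice were read with the same dye.

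Acinar cells make up most of the pancreas and secrete proteases as inactive zymogens, such as trypsinogen, together with lipases, amylase and ribonuclease. The zymogens are stored in apical granules and released when cholecystokinin or acetylcholine reaches the cell. The enzyme genes are switched on together by the PTF1 complex, in which the basic helix-loop-helix factor Ptf1a and the acinar factor Rbpjl bind neighbouring sites, an E box and a TC box. Bhlha15, also called Mist1, sets up the granules and the secretory apparatus. Their transcripts are among the most abundant of the pancreas.

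The stretches upstream of 4 members whose ratios are described below are shown because they carry, or lack, the letters of these sites. They cover the 250 bases before the transcription start in RefSeq on GRCm38.p6, and the capitals mark CACCTG, an E box, TTTCCC, the core of the TC box, and TATAAA, the TATA box, on either strand (read on the other strand, the first becomes CAGGTG and the next GGGAAA). Prss2 lies at chr6:41521526-41521775 on the plus strand, Cela2a at chr4:141826006-141826255 on the minus strand, Cpa1 at chr6:30638968-30639217 on the plus strand and Reg1 at chr6:78425733-78425982 on the plus strand. Each sequence runs 5′ to 3′ on the strand of its gene.
Prss2: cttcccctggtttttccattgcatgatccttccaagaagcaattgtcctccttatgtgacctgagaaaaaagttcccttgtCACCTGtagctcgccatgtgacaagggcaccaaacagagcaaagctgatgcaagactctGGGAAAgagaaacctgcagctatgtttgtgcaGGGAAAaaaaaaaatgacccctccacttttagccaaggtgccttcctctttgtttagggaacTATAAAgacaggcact
Cela2a: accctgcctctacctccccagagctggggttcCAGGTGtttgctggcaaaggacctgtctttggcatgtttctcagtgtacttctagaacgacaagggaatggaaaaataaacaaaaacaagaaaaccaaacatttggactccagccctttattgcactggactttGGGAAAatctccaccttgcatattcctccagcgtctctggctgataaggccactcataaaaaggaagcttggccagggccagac
Cpa1: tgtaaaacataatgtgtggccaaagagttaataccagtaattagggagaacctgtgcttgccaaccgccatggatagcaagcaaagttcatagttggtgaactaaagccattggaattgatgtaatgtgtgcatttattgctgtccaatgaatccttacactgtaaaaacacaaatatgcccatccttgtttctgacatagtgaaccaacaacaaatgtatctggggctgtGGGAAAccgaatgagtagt
Reg1: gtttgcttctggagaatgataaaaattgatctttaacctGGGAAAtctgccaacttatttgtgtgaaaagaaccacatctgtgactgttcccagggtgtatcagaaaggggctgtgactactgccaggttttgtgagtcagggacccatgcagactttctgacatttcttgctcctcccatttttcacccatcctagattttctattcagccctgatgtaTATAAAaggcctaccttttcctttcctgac
The Prss2 stretch holds all 3 motifs, with CACCTG starting at position -169 from the transcription start, TTTCCC at -110 and -78 and TATAAA at -16. Cela2a has CACCTG at -218 and TTTCCC at -84. Of the marked motifs Cpa1 has only TTTCCC, at -19, and Reg1 has TTTCCC at -211 and TATAAA at -30. Windows from 250 bases before to 50 after the start were found for 29 of the 36 listed genes. CACCTG was present in 17 of these 29 (58.6%), against 20.2% of all 32851 windows of the same length, and TATAAA in 12 (41.4%), against 13.6%. Matches were counted at any position, so not each TATAAA lies where a TATA box would. The only match of Cpb1 was at 35 and that of Serpini2 at -244. TTTCCC was present in 9 (31.0%), against 25.2%, and any E box (CANNTG) within 25 bases of TTTCCC in 5 (17.2%), against 5.63%. Of the 4 genes shown, Cpa1 has such a pair, with an E box other than CACCTG, and Prss2, Cela2a and Reg1 have none. CACCTG is itself a CANNTG, so these searches overlap. The counts describe letters only and say nothing of binding in these nodes.

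Of all probes, 67.1% to 71.4% were well above background in the GLN channel and 59.6% to 62.6% in the PDLN channel, and no spot was saturated. The tissue label was checked first: each of 14 lymph node markers was above background in both nodes of every mouse. The number of arrays, 4, limited the precision. Of the 32 matched genes, 30, 27, 29 and 28 were well above background in the GLN of mice 1 to 4, and 26, 25, 31 and 23 in the PDLN. The 27 tested genes were above background in the GLN of every mouse, so none of them passed the filter through mouse 3 alone. Signals of near-identical family members cannot be separated here for the trypsinogens, kallikreins and amylases, since a probe can bind more than 1 of them and probe sequences were not used.

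The comparison asks whether the level of exocrine transcripts differs between the nodes of the same mouse. In mouse 3 each of the 27 tested genes was lower in the GLN, by 1.95-fold for Erp27 to 229-fold for Reg1, with a median log2 ratio of -4.66. In mice 1, 2 and 4 the medians were -0.19, 0.20 and 0.46, against medians of 0.03, 0.03, 0.01 and 0.02 over all features in mice 1 to 4. No gene of the 27 was called over the 4 mice in either direction (limma with Benjamini-Hochberg adjustment, 0.05), and none had an unadjusted p under 0.05. Among all 21320 features 7.54% were called, 3.09% as higher and 4.45% as lower in the GLN, and 30.7% had an unadjusted p under 0.05. The lowest adjusted p of a member was 0.269, for Pla2g1b. With median centring in place of loess Erp27 alone was called, as lower, at -0.39 (limma adjusted p = 0.0273). Erp27 was near the floor, and well above background in the PDLN of 2 of the 4 mice. The mean of the 4 medians was -1.05 ± 2.42 (SD, n = 4), a spread wider than the mean itself.

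For each of the 27 genes mouse 3 had the lowest ratio of the 4 mice. Each mouse had an array of its own, so mouse and array cannot be told apart. A lowest value in mouse 3 was found for 31.7% of all features. In mouse 3, 26 of the 27 genes were below -1, as were 0.891% of all features, and 24 were below -3, as were 0.206%. In the other mice none of the 27 was below -1. In mouse 4, 3 of the 27 were above 1, namely Amy2a5 (1.51), Reg1 (1.25) and Prss2 (1.03), as were 0.0844% of all features. In mouse 1 it was 1 gene, Reg2 (2.08), against 1.55% of features, and in mouse 2 none. The lowest 10 features of mouse 3 held 8 of the listed genes, the lowest 20 held 14 and the lowest 30 held 18. In mouse 1, 21 of the 27 genes were below 0, in mouse 2 it was 5 and in mouse 4 it was 4, against 44.9%, 44.1% and 44.9% of all features. With median centring in place of loess, 11 of the 27 genes were below 0 in mouse 1, and the median of the 27 there was 0.12. The median of all features in mouse 1 was then 0.31, and 20 of the 27 genes lay below it.

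**Figure D1:**
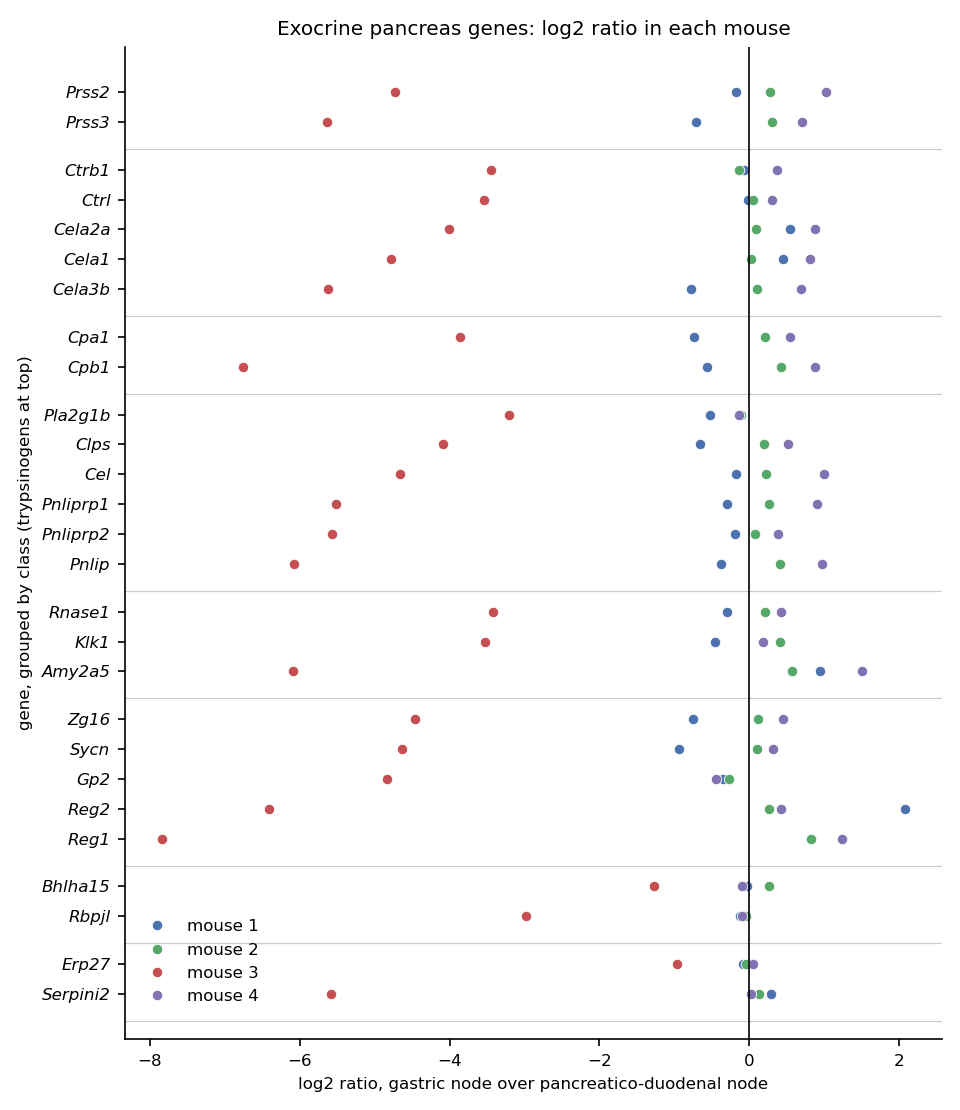
Log2 ratio of GLN over PDLN (x axis) for each of the 27 tested exocrine genes (rows, grouped by class), with 1 point per mouse. All points of mouse 3 lie between -7.84 and -0.96, and those of the other mice between -0.94 and 2.08.

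The trypsinogens, the zymogens that activate all others once cleaved in the gut, were represented by Prss2 and Prss3, while Prss1, Try4 and Try10 were matched to no probe. Prss2 read -0.17, 0.28, -4.72 and 1.03 in mice 1 to 4, a mean of -0.90 ± 2.60 (SD, n = 4; limma adjusted p = 0.546). It was thus 26.4-fold lower in the GLN of mouse 3 and 1 log2 unit higher in that of mouse 4. Prss3 read -0.71, 0.31, -5.64 and 0.71, and a further probe of the same gene read 0.28, 0.58, -5.65 and 1.13. Both probes put mouse 3 alike, while they differ in sign in mouse 1.

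Among the chymotrypsinogens and elastases, which cut proteins after other residues than trypsin does, 5 genes were tested and Ctrc was matched to no probe. Ctrb1, a chymotrypsinogen, read -0.07, -0.14, -3.45 and 0.37, and the chymotrypsin-like gene Ctrl read -0.01, 0.05, -3.54 and 0.30. The elastase gene Cela3b read -0.77, 0.10, -5.62 and 0.69. Cela1 and Cela2a, elastases too, were above 0 in each mouse but the third. Cela1 was at 0.46, 0.03, -4.78 and 0.81, and Cela2a at 0.55, 0.09, -4.01 and 0.88. Cela3b and Cela2a thus stood on opposite sides of 0 in mouse 1 and on the same side in the other mice. The adjusted p values of the 5 genes ran from 0.401 for Cela3b to 0.634 for Cela2a (limma).

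The carboxypeptidases trim amino acids from the end of a peptide. Cpa1, which prefers neutral residues, read -0.74, 0.21, -3.85 and 0.54, and Cpb1, which prefers basic ones, read -0.57, 0.42, -6.75 and 0.88. Cpb1 was 108-fold lower in the GLN of mouse 3 and Cpa1 14.5-fold. Over the 9 proteases the median was -0.17, 0.10, -4.72 and 0.71 in mice 1 to 4.

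The lipase group held 6 genes, all tested. Pnlip, the pancreatic triglyceride lipase, read -0.37, 0.41, -6.08 and 0.98. Its relatives Pnliprp1 (-0.29, 0.26, -5.51 and 0.91) and Pnliprp2 (-0.19, 0.07, -5.57 and 0.39) followed the same order of mice. Cel, the bile salt-stimulated carboxyl ester lipase, read -0.18, 0.23, -4.66 and 1.00. Clps, the colipase that anchors the lipase to fat droplets, read -0.66, 0.20, -4.08 and 0.52. Mouse 1 was below 0 and mouse 4 was above it in each of these 5 genes. Pla2g1b, the secreted phospholipase A2 of the pancreas, differed in that it was below 0 in every mouse, at -0.52, -0.11, -3.21 and -0.13. Its mean was -0.99 ± 1.49 (SD, n = 4; limma adjusted p = 0.269). The class median was -0.33, 0.21, -5.09 and 0.71.

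Amy2a5, a gene of pancreatic amylase, which digests starch, was above 0 in mice 1, 2 and 4 and 68.3-fold lower in the GLN of mouse 3, at 0.94, 0.58, -6.09 and 1.51. Rnase1, the pancreatic ribonuclease, read -0.29, 0.21, -3.43 and 0.42. A further probe of Rnase1 read -0.53, 0.14, -5.41 and 0.20, so the probes share the signs but differ by about 2 log2 units in mouse 3. Klk1, the tissue kallikrein, read -0.46, 0.41, -3.53 and 0.18.

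The regenerating proteins Reg1 and Reg2 are small lectin-like proteins that acinar cells secrete, more of them in an injured or inflamed pancreas. Reg1 had the widest range of all members, at 0.82, 0.83, -7.84 and 1.25, and was the lowest of all 21320 features in mouse 3. Reg2 read 2.08, 0.26, -6.42 and 0.43, and its value in mouse 1 was the highest of any tested member in any mouse. Zg16, a lectin of the zymogen granule, read -0.75, 0.12, -4.46 and 0.46, and Sycn, syncollin of the granule membrane, read -0.94, 0.10, -4.63 and 0.32. Gp2, the main glycoprotein of that membrane, was below 0 in every mouse, at -0.35, -0.27, -4.84 and -0.44. The Reg genes and the granule genes thus took opposite signs in mouse 1 and shared the sign in mouse 3. Cuzd1, a further granule protein, was too dim to be tested, at 0.10, -0.08, -4.60 and 0.16. In mouse 3 it was not well above background in the GLN, and its level there was at least 24.3-fold lower than in the PDLN, taken against its GLN signal.

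With the main processing the transcription factors had smaller ratios in mouse 3 than any of the tested enzyme genes. This did not hold with the scanner's processed signals or the authors' series table. Rbpjl was there at -3.41 in mouse 3 and the enzyme gene Pla2g1b at -3.34. In the main processing Rbpjl read -0.12, -0.04, -2.98 and -0.09, which put it 7.92-fold lower in the GLN of mouse 3. Bhlha15 read -0.02, 0.27, -1.27 and -0.09, a 2.41-fold difference in mouse 3. A further, dimmer probe of Bhlha15 read 0.03, 0.00, -0.04 and 0.11, with no such difference. Bhlha15 is also used by plasma cells, which lymph nodes hold, and it was above background in both nodes of every mouse. Ptf1a was not well above background in the GLN of any mouse, and in the PDLN it was so in mouse 3 alone. Its level was there at least 1.77-fold higher than in the GLN of that mouse.

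Of the other acinar genes, Serpini2, a pancreatic serpin, read 0.29, 0.13, -5.59 and 0.03, and Erp27, a relative of the protein disulfide isomerases of the endoplasmic reticulum, read -0.09, -0.04, -0.96 and 0.06. Cckar, the cholecystokinin receptor that triggers secretion, was too dim for the test, at 0.00, -0.05, -2.60 and -0.12. The cargo transport genes Tmed6 (-0.32, 0.05, -2.59 and -0.03) and Tmed11 (-0.01, -0.04, -0.42 and 0.11) were also too dim, and Tmed11 was above background in no node of any mouse. With these dim genes counted, each of the 32 matched genes was below 0 in mouse 3.

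Set side by side in mouse 3, the class medians were -5.30 for carboxypeptidases, -5.18 for trypsinogens, -5.09 for lipases, -4.84 for Reg, Zg and granule proteins, -4.01 for chymotrypsinogens and elastases, -3.53 for amylase, ribonuclease and kallikrein, -3.28 for other acinar genes and -2.13 for transcription factors. The ranges of proteases (-6.75 to -3.45) and lipases (-6.08 to -3.21) overlapped over most of their length. The range of the Reg, Zg and granule proteins (-7.84 to -4.46) reached further down, and both transcription factors lay above it. These are differences between genes on a single array, and no test applies to them.

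The levels of each channel show in which node mouse 3 stood apart. On the normalized log2 scale the PDLN level of mouse 3 was above the mean of the other PDLNs for 27 of the 27 genes, with a median difference of 6.44, against 0.01 over all features. For Cela3b the PDLN levels were 14.04, 11.59, 18.34 and 10.17 in mice 1 to 4, and the GLN levels were 13.28, 11.69, 12.72 and 10.86. The PDLN of mouse 3 was thus the highest of 8 samples, while its GLN lay within the range of the other mice. Reg1 had the largest difference, with PDLN levels of 9.13, 7.65, 16.32 and 7.25, which is 317-fold above the mean of the others. Its GLN levels were 9.96, 8.48, 8.48 and 8.50, so the GLN of mouse 3 was level with those of mice 2 and 4. In the PDLN of mouse 3, Cela2a was 308-fold, Amy2a5 285-fold, Cela1 266-fold and Prss2 229.5-fold above the mean of the others. Rbpjl was higher by 3.35 on the log2 scale, Bhlha15 was 2.84-fold and Erp27 2.26-fold above it. For Serpini2, Reg2, Erp27 and Pnliprp2 the PDLN was not well above background in 3, 2, 2 and 1 of the other mice, so that their differences rest on levels near the floor. Together the 35 probes of the 32 matched genes took up 4.55% of the net PDLN signal in mouse 3 and 0.191%, 0.0387% and 0.0194% in mice 1, 2 and 4.

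**Figure D2:**
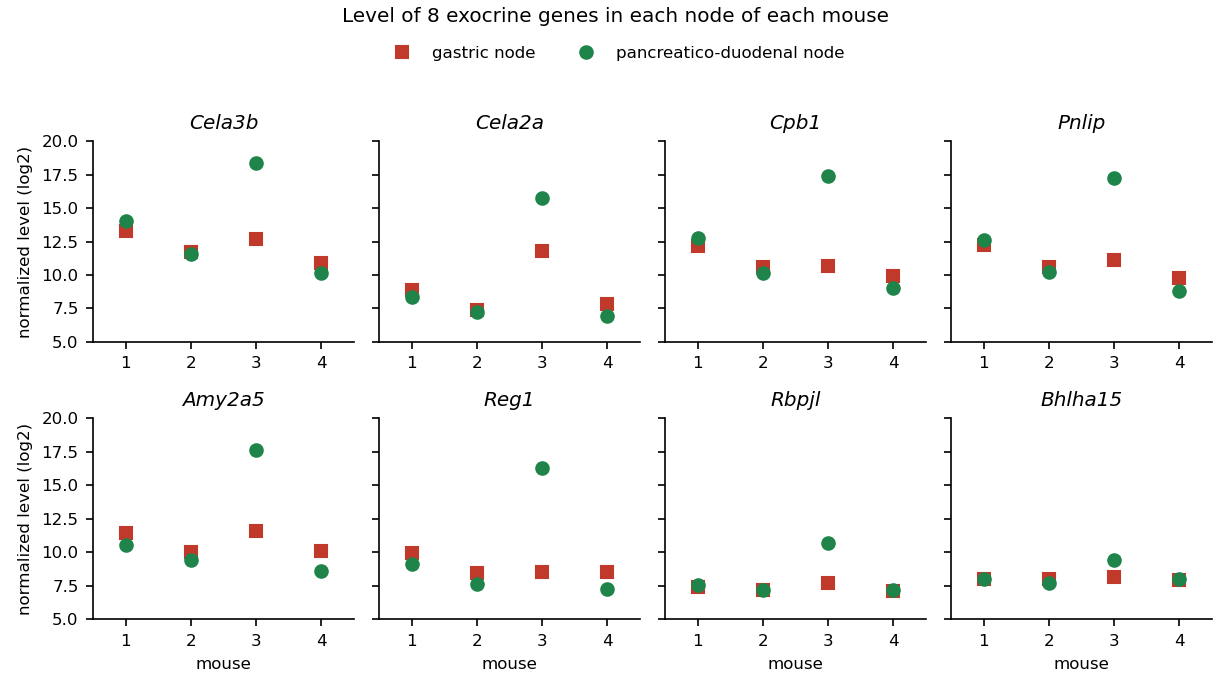
Normalized log2 level (y axis) of 8 exocrine genes in the GLN (squares) and the PDLN (circles) of each mouse (x axis). The PDLN of mouse 3 is the highest point in each panel, at 18.34 for Cela3b and 16.32 for Reg1.

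The GLN of mouse 3 stood apart as well for some of these genes, and less so. Its level was above the mean of the other GLNs for 24 of the 27 genes, with a median difference of 1.05 on the log2 scale, against -0.01 over all features. Cela2a, with GLN levels of 8.87, 7.34, 11.76 and 7.81, was 13.5-fold above the mean of the others. Rnase1 was 8.27-fold, Ctrb1 7.48-fold, Cela1 7.20-fold, Ctrl 6.94-fold and Prss2 6.69-fold above it. At the other end, Cpb1 was at 0.854-fold, Serpini2 at 0.943-fold and Reg1 at 0.708-fold of that mean, and Reg2 (1.03-fold), Pnliprp2 (1.10-fold) and Pnlip (1.22-fold) were close to it. The chymotrypsinogens and the elastases Cela1 and Cela2a thus stood above the other mice in both nodes of mouse 3, and Reg1, Cpb1 and Serpini2 in its PDLN alone. The net GLN signal held 0.121%, 0.0394%, 0.174% and 0.0261% from the 35 probes of the 32 matched genes in mice 1 to 4.

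**Figure D3:**
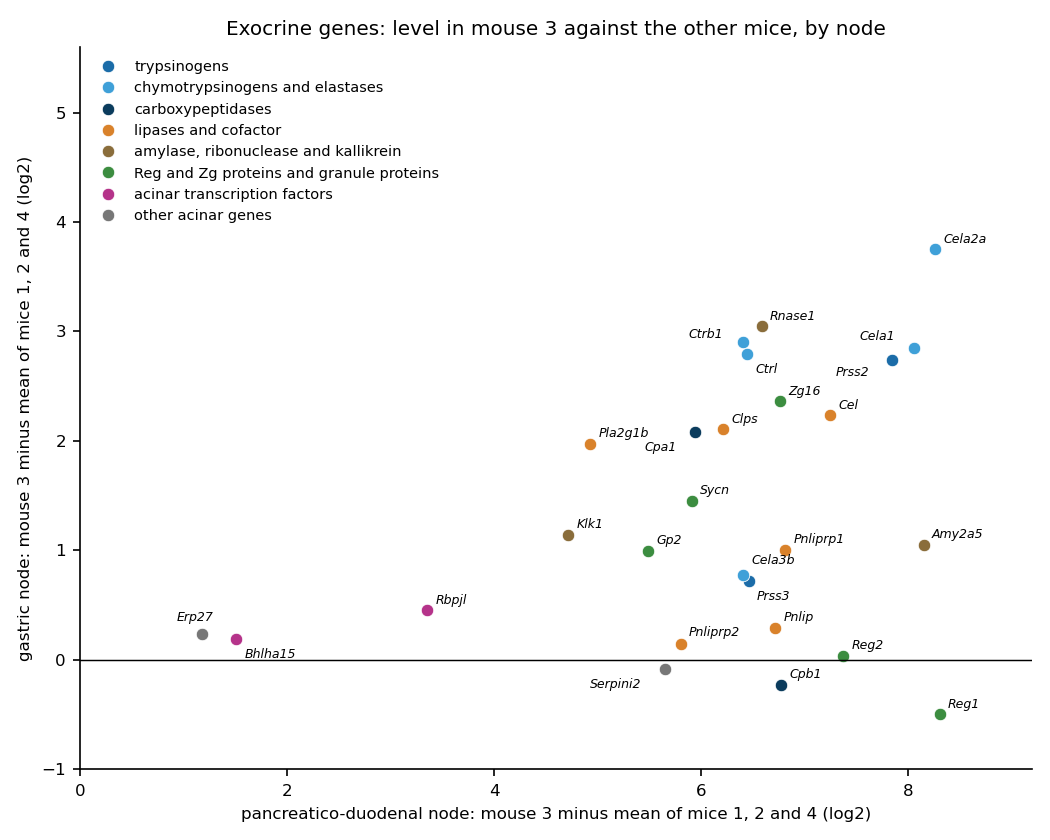
Difference between mouse 3 and the mean of mice 1, 2 and 4 in normalized log2 level, in the PDLN (x axis) and in the GLN (y axis), with 1 point per gene and colours for the classes. The PDLN differences run from 1.18 to 8.31 and the GLN differences from -0.50 to 3.75.

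Exocrine transcripts also varied in level among the other mice, in both nodes. In mouse 1 the GLN level was above that of mouse 4 for 26 of the 27 genes and the PDLN level for 27, with median differences of 1.46 and 1.88 on the log2 scale. Over all features these medians were 0.02 and -0.01. The difference was larger in the PDLN for 23 of the 27 genes, as for Cpa1, at 2.76 in the GLN and 4.04 in the PDLN, whereas Reg2 was at 2.27 and 0.61. Clps, for example, had GLN levels of 12.79, 10.99 and 10.01 and PDLN levels of 13.45, 10.78 and 9.49 in mice 1, 2 and 4. Its ratio stayed between -0.66 and 0.52 in these mice, while its level in either node spanned over 2 log2 units.

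Without mouse 3 the mean ratio of the 3 remaining mice was above 0 for 21 of the 27 genes, the opposite sign of the mean over 4 mice. The mean of the 3 medians was 0.16 ± 0.33 (SD, n = 3). No member was called (limma), and 0.0141% of all features were. An unadjusted p under 0.05 was found for 5 of the 27 (18.5%) and for 26.9% of all features. Reg1 was higher in the GLN in 3 of 3 mice, at 0.97 ± 0.24 (SD, n = 3; limma adjusted p = 0.0806), and so was Amy2a5, at 1.01 ± 0.47 (limma adjusted p = 0.0912). Gp2 was lower in 3 of 3, at -0.36 ± 0.09 (limma adjusted p = 0.0911). None of these passed the threshold. In all, 6 of the 27 genes had the GLN higher in each of mice 1, 2 and 4, as did 32.1% of all features, and 3 had it lower, as did 22.4%. For Serpini2 and Reg2, among the 6, the PDLN was not well above background in 3 and 2 of these mice.

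Most other genes of acinar cells, taken from a list that does not overlap the 36, were lowest in the same mouse. Of 18 further acinar genes 12 were tested, none was called, and their median was -0.26, 0.07, -2.92 and 0.05 in mice 1 to 4. In mouse 3, 10 of these 12 were below 0 and 9 below -1, while Dnase1 (0.10) and Muc1 (0.05) were above 0 and not lowest there. Amy1, the salivary-type amylase gene, read -0.24, 0.27, -6.73 and 0.86, and the trypsinogen Try5 read -0.40, 0.34, -4.60 and 0.91. Both belong to families whose signals cannot be separated here from those of members. The summed normalized level of the 12 was 1112980 in the PDLN of mouse 3 and 12632.5 to 101231 in the other PDLNs. Genes that acinar cells share with other secretory cells had smaller ratios in mouse 3. Of 6 transcription factors of acinar and secretory cells 2 were lower in the GLN, Atf4 at -0.34 ± 0.03 (SD, n = 4; limma adjusted p = 0.0254) and Xbp1, which drives secretory capacity in acinar and plasma cells, at -0.28 ± 0.11 (SD, n = 4; limma adjusted p = 0.0474). Their list median in mouse 3 was -0.29, and in the other mice it was -0.06 to -0.25. Of 7 genes of exocytosis and secretagogue receptors 2 were lower, the vesicle SNARE gene Vamp2 at -0.47 ± 0.07 (SD, n = 4; limma adjusted p = 0.0223) and Stxbp2, a syntaxin-binding protein gene, at -0.42 ± 0.17 (SD, n = 4; limma adjusted p = 0.0375). A further, dimmer probe of Vamp2 read -0.16, -0.01, 0.10 and -0.20 in mice 1 to 4, and another read 0.03, 0.05, 0.08 and -0.09. The call of Vamp2 thus rests on its brightest probe. Beside these counts, 4.45% of all features were called as lower in the GLN. When the arrays were only centred on their medians, without loess, the median over all features became 0.31. Atf4, Xbp1, Vamp2 and Stxbp2 then read 0.15, 0.26, 0.01 and 0.01, the opposite sign but still below that median. Each of these 4 calls was also lost without mouse 2, without mouse 3 and without mouse 4. In these settings 0, 3 and 1 of all features were called lower and 0 higher, so the losses are not particular to these genes. In all, Atf4 lost its call in 5 of 16 alternatives, Xbp1 and Stxbp2 in 6 and Vamp2 in 4, besides the turned sign.

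**Figure D4:**
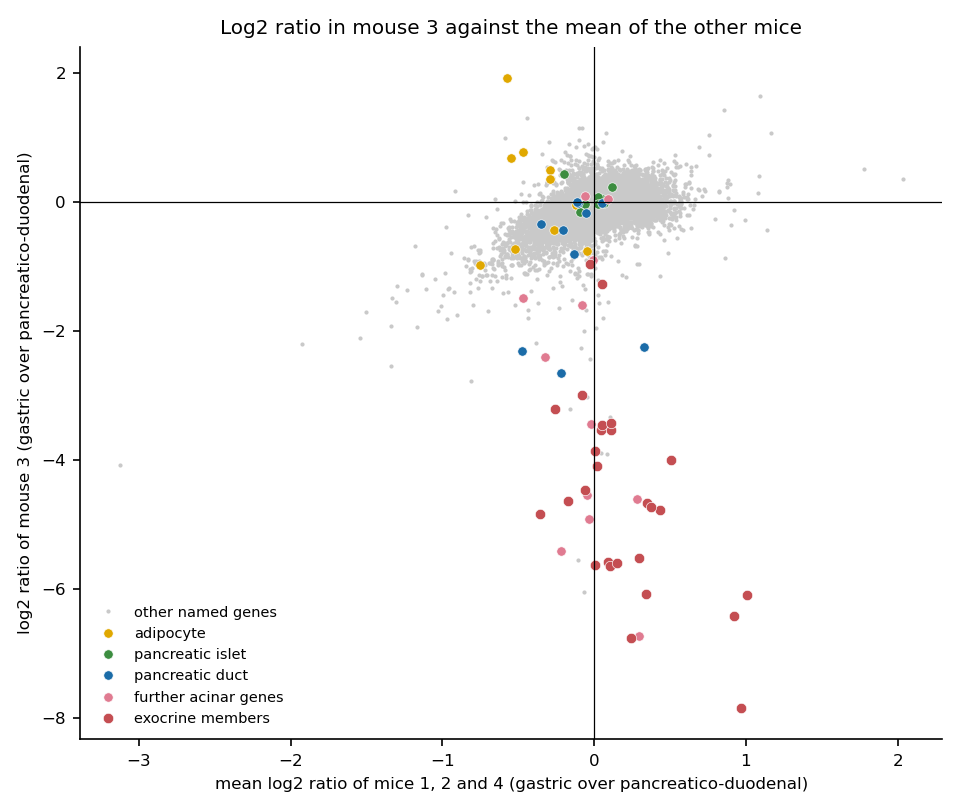
Log2 ratio of mouse 3 (y axis) against the mean log2 ratio of mice 1, 2 and 4 (x axis) for named genes, with exocrine members, further acinar, duct, islet and adipocyte markers in colour. The exocrine members form a vertical band down to -7.84, and the islet markers stay between -0.16 and 0.43 in mouse 3.

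Markers of pancreatic duct and islet were examined in the same way. Of 10 duct genes 1 was called lower in the GLN, as were 4.45% of all features. It was the keratin gene Krt7, at -0.34 ± 0.09 (SD, n = 4; limma adjusted p = 0.0305). The list median of the duct genes was -0.12, -0.14, -0.39 and -0.18. In mouse 3, 3 of the 10 were below -2, as were 0.277% of all features, namely Krt18 at -2.65, Krt8 at -2.30 and the osteopontin gene Spp1 at -2.25, which were chosen for their low values. The duct genes' summed level was 3532 in the PDLN of mouse 3 and 1593.6 to 1877.7 in the other PDLNs, and Cftr and Cldn4 were above background nowhere. Of 24 matched islet genes 8 were tested and none was called. Their median was -0.06, 0.02, 0.02 and 0.03. Their summed level was 939.6 to 1091.7 in the PDLN, lowest in mouse 3, and 982.6 to 1062.9 in the GLN. In the PDLN 6, 5, 5 and 8 of the 8 genes were above background in mice 1 to 4, so these sums rest in part on levels near the floor. The brightest of them, Pcsk2, a prohormone convertase, read 0.12, -0.06, -0.03 and 0.01, and Nkx6-1, a beta cell factor, read -0.07, 0.20, -0.02 and 0.06. The insulin gene Ins2 had PDLN levels of 8.06, 6.87, 6.50 and 6.57, with mouse 3 the lowest, and the glucagon gene Gcg was above background nowhere.

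Among markers of tissues around the nodes, adipocyte genes varied most, and in other mice. Their list median was 1.63, -1.47, 0.15 and -1.38, with Fabp4, a fatty acid binding protein gene, at 1.72, -1.58, -0.73 and -1.70 and the adipsin gene Cfd at 2.74, -2.18, 1.92 and -2.28. None of the 10 was called. Their summed level in the PDLN was lowest in mouse 3, at 6545.5, and ran up to 42602.3 in mouse 2; in the GLN it ran from 5438 in mouse 3 to 39898.9 in mouse 1. Of 4 stomach genes none was called. Muc5ac, a gastric mucin gene, stayed between -0.03 and 0.12, while the trefoil factor gene Tff2, which is made in the stomach and also in the pancreas, read -0.47, -0.11, -3.21 and 0.11, and Gkn1, Gkn2, Pgc and Cblif were above background nowhere. Intestinal and liver genes had list medians of 0.00 and 0.01 in mouse 3 and no called member among 7 and 3. Lgals4, an intestinal galectin gene, read 0.13, -0.06, -0.21 and -0.13 and Fabp2 -0.13, -0.14, 0.00 and -0.04. Tat, a liver aminotransferase gene, read -0.06, 0.03, 0.01 and 0.09 and Cyp2e1, a cytochrome gene of liver and fat, 1.24, -1.73, -0.71 and -1.42. Alb, Apoa1, Apoa2 and Ttr were above background nowhere.

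In mouse 3 the median ratios of the lymph node and plasma cell lists, 0.07 and -0.15, lay far nearer 0 than that of the exocrine genes. The lymph node list had a median of 0.16, 0.07, 0.07 and 0.11, and its summed PDLN level was 228038 to 242296, within which mouse 3 lay. Its summed GLN level was 244547 in mouse 3 and 291550 to 300085 in the others. Single genes of this list differed more, such as Cxcl13 at 1.00 and Ms4a1 at 0.90 in mouse 1 and Ccl19 at 0.86 in mouse 2. These were singled out for their high values, and 6 genes of the list were below 0 in mouse 1 and 4 in mouse 2. Of its 14 genes 1 was higher in the GLN, the T cell receptor component gene Cd3g at 0.32 ± 0.14 (SD, n = 4; limma adjusted p = 0.0455), and 1 was lower, the vessel ligand gene Madcam1 at -0.25 ± 0.09 (SD, n = 4; limma adjusted p = 0.0497). With median centring Madcam1 read 0.28, still below the median of all features, 0.31. Of 12 plasma cell genes 2 were lower, Xbp1 and the receptor gene Tnfrsf17 at -0.33 ± 0.07 (SD, n = 4; limma adjusted p = 0.0295). Beside the counts of both lists, 3.09% of all features were called as higher and 4.45% as lower in the GLN. Without mouse 2, without mouse 3 and without mouse 4 the calls of Cd3g, Madcam1, Tnfrsf17 and Krt7 were lost as well. So were nearly all calls over the whole table, where 0, 3 and 1 features were still called. Madcam1 was lost without mouse 1 too. The plasma cell genes' summed PDLN level was 44779.9 in mouse 3 and 47662 to 58420.2 in the others, and their summed GLN level was 35383.9 in mouse 3 and 47149.9 to 51897.6 in the others. In mouse 3 Fkbp11, a chaperone gene of secretory cells, was at -1.14 and Jchain, the joining chain gene of secreted antibodies, at -0.79, both singled out for their low values. The part of duct, stomach, adipocyte and plasma cell genes in the exocrine values of mouse 3 was not tested.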

How the data were processed

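The nodes of each mouse shared 1 array, and the 4 arrays lay on 1 slide. The deposited scanner files give mean and background intensity for every spot in either channel, from Agilent Feature Extraction 10.2.1.3 per the file headers. The series table deposited by the authors is on a log2 scale: it matched log2 of processed Cy5 over processed Cy3 (spots of a probe averaged) to within 5.11e-05, with column medians of -0.15, -0.06, -0.03 and -0.03.

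Background was corrected by normexp with an offset of 50, then each array was normalized by loess (limma 3.58.1 under R 4.3.3, with files read by version 1.17.8 of data.table), with weight 0 for control spots and for outliers, which were then dropped. Averaging spots gave 41174 probes. Accessions were looked up in RefSeq (GRCm38.p6), which gave a symbol for 24844. A probe was kept when at least 3 of 4 arrays had it well above background in 1 channel (27603 probes), and the brightest probe stood for a gene (21320 features). Mean log2 ratios were tested against 0 with lmFit and eBayes, Benjamini-Hochberg adjusted over all features, at 0.05. The pairing comes from the mouse, since both channels of an array hold the same animal. Levels of single channels were taken after loess and Aquantile. A fold bound for a dim channel was set against the higher of its own signal and the lowest signal of that channel well above background.

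The members and lists were chosen with earlier results of these data known. Each listed member is described. From each other list up to 3 called genes are named, or the 2 brightest where none was called, and so are the 10 non-members with the lowest ratio in mouse 3, skipping clone and predicted names; 1 of these is not reported here. The steps were tested on simulated data. Figures were drawn with matplotlib 3.10.9. Alternatives covered the background, normalization, filter, choice of probe, variance model, pairing, threshold, series table and each mouse left out. Protein sequences were not used here.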

Additional observations from a re-analysis of the deposited data

Results flagged for a closer look

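With 4 mice, a value was singled out where its gap to the nearest other mouse exceeded Dixon's 95% critical share of the whole range, which chance alone passes in about 1 of 20 groups. Among all features 6.24% passed it, and 1.40% did so through mouse 3. Of the 27 tested exocrine genes 12 passed it, each through mouse 3. Their ratios there were -3.45 for Ctrb1, -3.54 for Ctrl, -4.78 for Cela1, -4.01 for Cela2a, -5.57 for Pnliprp2, -3.21 for Pla2g1b, -6.09 for Amy2a5, -7.84 for Reg1, -4.84 for Gp2, -2.98 for Rbpjl, -5.59 for Serpini2 and -0.96 for Erp27. The other 15 genes did not pass it and were at -6.75 to -1.27 in mouse 3.

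The same criterion singled out mouse 3 in several medians. They were -4.66 for the exocrine genes together, -4.01 for chymotrypsinogens and elastases, -4.84 for Reg, Zg and granule proteins, -2.13 for the transcription factors, -3.28 for other acinar genes and -2.92 for the further acinar genes. In the islet list it singled out mouse 1, at -0.057. In the PDLN levels 6 of the 27 genes passed it through mouse 3, and in the GLN levels 2 did, both through another mouse.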

How the results depend on the processing

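No exocrine gene was called under any of the alternatives but 1. With median centring in place of loess, where the median over all features was 0.31, 1 member was called lower, Erp27 at -0.39 (limma adjusted p = 0.0273), and Bhlha15 turned to 0.044. Erp27 was well above background in the PDLN of only 2 mice. With this centring Atf4 (0.15), Xbp1 (0.26), Madcam1 (0.28), Vamp2 (0.0087) and Stxbp2 (0.0081) turned above 0 as well, each still below the median over all features. In mouse 1, 20 of 27 members were below that median, but 11 were below 0, against 21 in the main processing. The lowest adjusted p of a member ran from 0.0273 to 0.459 over the alternatives. Each tested member was below 0 in mouse 3 under every scaling, and so were the 24 left by a filter on both channels and the 32 kept with none. Of the 8 called genes of the other lists 5 lost the call with the processed signals, 5 with the values of the series table and 5 with unpaired channels. All 8 lost it without mouse 2, without mouse 3 and without mouse 4, where 0, 3 and 1 of all features were still called. The alternatives for these 8 genes were added after seeing the data.

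Mouse 3 set the sign of the mean ratio of 21 members. Leaving out each mouse in turn moved the mean of the medians from -1.55 to 0.16, the latter without mouse 3. The members that turned above 0 without mouse 3 ranged, as log2 ratio, from -1.54 to 0.38 for Prss2, -2.01 to 0.10 for Prss3, -1.22 to 0.052 for Ctrb1, -1.17 to 0.11 for Ctrl, -1.43 to 0.43 for Cela1, -1.12 to 0.51 for Cela2a, -2.10 to 0.007 for Cela3b, -1.46 to 0.0036 for Cpa1, -2.30 to 0.25 for Cpb1, -2.01 to 0.34 for Pnlip, -1.85 to 0.29 for Pnliprp1, -1.90 to 0.091 for Pnliprp2, -1.54 to 0.35 for Cel, -1.51 to 0.020 for Clps, -1.53 to 1.01 for Amy2a5, -1.17 to 0.11 for Rnase1, -1.27 to 0.044 for Klk1, -2.06 to 0.97 for Reg1, -1.91 to 0.92 for Reg2, -0.46 to 0.051 for Bhlha15 and -1.81 to 0.15 for Serpini2. Pla2g1b, Zg16, Sycn, Gp2, Rbpjl and Erp27 stayed below 0.

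Over all features, the counts called lower and higher were 949 and 659. Those lower became 2066 and those higher 12821 with median centring, and 2055 and 2151 at a threshold of 0.10. Treating the channels as unpaired, with no block for the mouse, gave 582 and 343. The processed signals gave 569 lower, the values of the series table gave 584 lower and scale normalization between arrays 1077 higher. Leaving out a mouse gave 0 to 1323 lower and 0 to 844 higher, with 3 lower without mouse 3. The causes were not tested. Probes near the background, such as Ptf1a and Tmed11, and the number of arrays, 4, limit what could be seen.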

Other observations

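Named genes outside the list with the lowest ratios in mouse 3 were taken in order of that value, as a description. Most are known from acinar cells. Amy1 was at -6.73, Spink1, the trypsin inhibitor that guards acinar cells, at -5.41, Try5 at -4.60, Pdia2, the pancreatic protein disulfide isomerase, at -4.54 and Reg3d, a further Reg gene, at -3.44. Dmbt1, a scavenger receptor cysteine-rich protein of mucosal and glandular epithelium, was at -5.56, and the glandular kallikreins Klk1b3 and Klk1b4 were at -3.90 and -3.89. Each of these 8 was between -1.10 and 0.91 in the other mice. Apol7c, an apolipoprotein L family gene, was at -4.08 in mouse 3 and at -3.14, -3.50 and -2.73 in mice 1, 2 and 4, so of the genes named here it alone was below -1.10 in every mouse.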
